A study of Mus musculus with 9 samples.

Results

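The livers of mice that lack HP1α were compared with those of control mice, across every gene with a mean of at least 10 normalised reads over the 5 libraries of both groups. The rule kept 13727 of the 22701 genes in the deposited table. RNA came from mice aged 5 weeks on a background labelled C57BL/6 and 129svPas. The genotype WT had 3 livers, and HP1a-/- had 2 livers, here called HP1a_KO. A further 4 livers entered the fit and are used where stated. One was HP1a-/-, HP1bliver-/- (HP1ab_KO) and 3 were HP1a-/-, HP1gliver-/- (HP1ag_KO), so every mutant liver of the series carried the HP1α deletion. The labels write the HP1α deletion with no tissue and the HP1β and HP1γ deletions with liver, and name neither the deleted exons nor a Cre driver. Whole liver was used, so that hepatocytes, immune cells, endothelium and stellate cells all contribute RNA. Fewer cells of a type and less RNA per cell cannot be told apart in such samples.

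HP1α is a chromatin protein encoded by Cbx5. It binds the methylated tail of histone H3 through its chromodomain and recruits other silencing factors through its chromoshadow domain, and it is concentrated in the heterochromatin around centromeres. Its paralogues HP1β and HP1γ are encoded by Cbx1 and Cbx3. The series title gives the question as a role of these proteins in suppressing liver tumours, and the comparison of single mutant with control livers asks which transcripts differ when HP1α alone is missing.

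Libraries held 16266423 to 36161177 reads in genes. The smallest was HP1a_KO replicate 1, which had less than any of the other 8, so the worth of 1 read was 1.83 normalised reads there and 0.80 to 1.12 elsewhere. Reads of mitochondrial genes made up 3.83% of HP1a_KO replicate 1, 4.202% of replicate 2 and 4.57 to 5.51% of the WT libraries. The labels name each liver by an animal number and do not say whether animals shared a litter, a day or a sequencing run. Both HP1a_KO animals have neighbouring numbers and the WT animals do not. Genotype and any shared litter or day cannot be told apart. On the first principal component, which held 25.3% of the variance, HP1a_KO replicates 1 and 2 lay at 40.5 and 21.8 and the WT livers between -20.7 and -5.17. WT replicate 1 stood apart from the other WT livers on the second component, at 48.6 against -3.64 and -11.7 (22.7% of the variance). Hepatocyte markers were close to level between the groups, with a median log2 difference of 0.073 over 10 members. Alb, which encodes albumin, had 1726290.0, 2489715 and 2164446 normalised reads in the WT livers and 2196150.0 and 2550225 in the HP1a_KO livers.

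The main test was limma on log2(value + 1), with p-values adjusted over all 13727 genes by the Benjamini-Hochberg method. It called 0 genes at an adjusted p under 0.05, with a smallest adjusted p of 0.0588 for Cyp2c39. At an unadjusted p under 0.05 it had 1391 genes (10.1%), 755 higher (5.5%) and 636 lower (4.63%) in HP1a_KO. With libraries scaled to equal totals that split was 521 higher and 961 lower, the median of all genes moving from -0.0014 to -0.043, so small shifts shared by many genes depend on the scaling. The quasi-likelihood test of edgeR on recovered reads called 0 genes too, with a smallest adjusted p of 0.0818 and 1344 genes (9.79%) at an unadjusted p under 0.05. The Wald test of DESeq2 on the same reads called 88 genes (0.641%), 61 higher (0.444%) and 27 lower (0.197%), and gave no adjusted p for 552 genes. Of its 88 calls, 87 had both HP1a_KO livers on one side of the 3 WT livers, which is called standing clear below. Among all genes 29.9% stood clear, 2029 on the higher side (14.8%) and 2076 on the lower side (15.1%). Regardless of any test, 49.8% of genes were higher and 50.2% lower. The 3 tests thus disagree, and the genes named with a DESeq2 p below had limma adjusted p-values of 0.194 or more, except Cyp2c39. The DESeq2 calls depended on single livers. Without HP1a_KO replicate 1 they numbered 4, of which 3 were among the 88, and without replicate 2 they numbered 59 (30 shared). Without WT replicate 1 they numbered 252 (64 shared), and without WT replicate 3 they numbered 32 (22 shared).

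**Figure D1:**
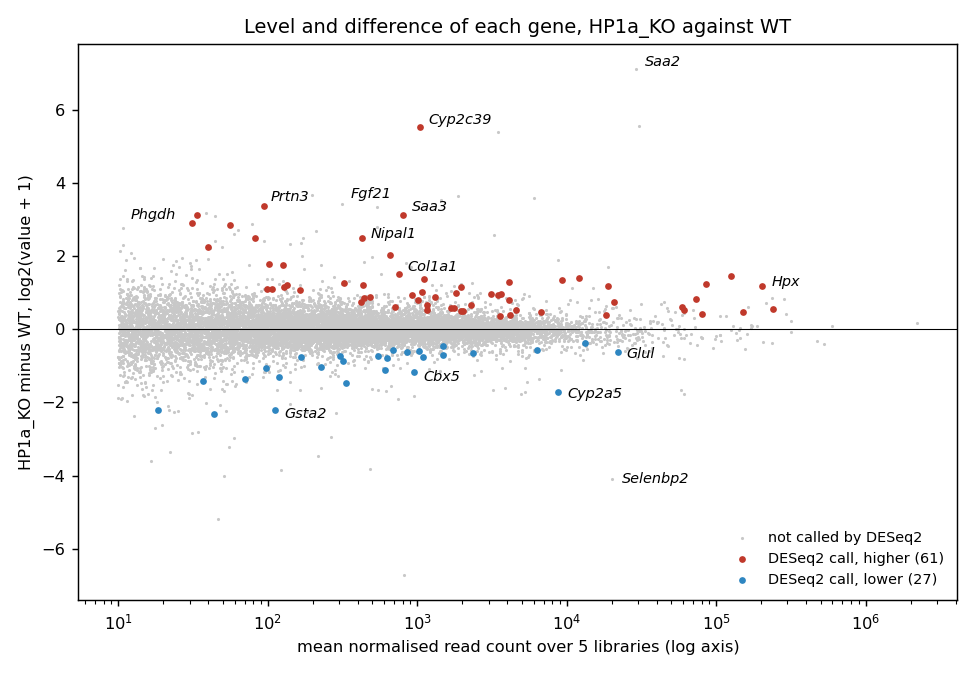
Each point is 1 of 13727 genes, with its mean normalised read count over the 5 libraries on a log axis and its difference between HP1a_KO and WT on the log2(value + 1) scale. Red points are the 61 genes that DESeq2 called higher and blue points the 27 it called lower, and Cyp2c39 lies above all other called genes at 5.53.

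Transcripts of the targeted gene were lower and still present. Cbx5 (chr15:103191544-103239816, build GRCm38, minus strand) had 1542, 1167 and 997 normalised reads in WT replicates 1 to 3 and 576 and 501 in HP1a_KO replicates 1 and 2. Both mutant livers lay below every WT liver (log2 difference -1.18 ± 0.19 SE, DESeq2 adjusted p = 9.67e-05), at 44.2% of WT on the log2 scale. Reads from parts of the gene outside the deletion count toward this value, so it does not measure how much protein was left. The HP1β gene Cbx1 was also lower in both livers, at 1082, 868 and 803 in WT against 457 and 771 in HP1a_KO (log2 difference -0.62 ± 0.23 SE, DESeq2 adjusted p = 0.4), with replicate 1 farther down than replicate 2. The HP1γ gene Cbx3 overlapped between the groups, at 536, 639 and 641 in WT against 572 and 609 in HP1a_KO. In the other HP1α mutants Cbx5 stood at 663 in HP1ab_KO and 663, 813 and 753 in HP1ag_KO.

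The difference that stood out most was a single cytochrome P450. Cyp2c39 (chr19:39510862-39568529, plus strand), whose family oxidises drugs, retinoids and fatty acids, had 33.8, 83.8 and 46.8 normalised reads in WT and 3258 and 1764 in HP1a_KO (log2 difference 5.53 ± 0.51 SE, DESeq2 adjusted p = 2.26e-27). The HP1ab_KO liver had 1690.0, close to the single mutants, and the HP1ag_KO livers had 175, 60.6 and 87.1, close to WT. Most of its relatives were lower. Of 14 Cyp2c genes tested, 12 were lower and 2 higher, with a median log2 difference of -0.37. Those at an unadjusted limma p under 0.05 were 1 higher, Cyp2c39, and 3 lower, against 5.5% and 4.63% of all genes. Cyp2c50 had 13368, 13625 and 20408 in WT against 7968 and 9389.9 in HP1a_KO (log2 difference -0.84 ± 0.24 SE, DESeq2 adjusted p = 0.0719). Cyp2c54 had 4486, 4791 and 7261 in WT against 3730.0 and 3460.0 in HP1a_KO, and Cyp2c29 had 27483, 25127 and 31954 in WT against 17213 and 20494 in HP1a_KO. In each of these 3 the mutant livers lay below all WT livers, and DESeq2 called none. Without WT replicate 1 the median of the Cyp2c list was -0.65. Reads of such near-identical genes may be split between copies, so their levels are uncertain.

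Acute phase proteins, which hepatocytes secrete in inflammation, formed the list with the widest shift among those with 10 or more members tested. Of 29 members, 28 were higher in HP1a_KO, with a median log2 difference of 1.18 beside -0.0014 over all genes. Of the 29, 20 stood clear above WT and 0 clear below, against 14.8% and 15.1% of all genes. DESeq2 called 8 of them, all higher, against 0.444% of all genes, and gave no adjusted p for 4. The size differed between the livers, with a median of 1.70 in replicate 1 and 0.66 in replicate 2, which are also the medians when only that mutant liver is kept. Interleukin signals reach these genes mainly through the transcription factors STAT3 and C/EBP.

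The promoters of acute phase genes were searched for the letters such factors are known to bind, and a few are printed with those letters in capitals to show where they lie. RefSeq promoter windows of GRCm38.p6 (250 bases before to 50 after the start) were found for 23 of the 29 genes. A gene was counted if any of its windows held the letters. The C/EBP letters TTGCNNAA, searched on both strands, were in 13 of the 23 genes (56.5%), and in 10.7% of the 9838 tested genes with a window. The STAT letters TTCNNNGAA, which read alike on both strands, were in 6 of 23 (26.1%), and in 8.61% of the tested genes with a window. Among the 17 genes that stood clear above WT and had a window, 10 had the C/EBP letters. A match is a run of letters and no evidence of binding here. Each line reads 5′ to 3′ on the strand of the gene, all upstream of the start. The first 5 lines hold the C/EBP letters or their reverse complement and the last the STAT letters.
Hpx chr7:105600289-105600336 (- strand): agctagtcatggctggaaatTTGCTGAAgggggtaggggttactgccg
Saa3 chr7:46715748-46715795 (- strand): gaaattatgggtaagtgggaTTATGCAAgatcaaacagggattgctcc
Cp chr3:19957159-19957206 (+ strand): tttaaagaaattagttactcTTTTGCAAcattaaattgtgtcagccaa
Fga chr3:83025998-83026045 (+ strand): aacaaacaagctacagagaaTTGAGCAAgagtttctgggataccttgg
Orm2 chr4:63362309-63362356 (+ strand): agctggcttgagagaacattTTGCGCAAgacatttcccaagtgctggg
Itih4 chr14:30886405-30886453 (+ strand): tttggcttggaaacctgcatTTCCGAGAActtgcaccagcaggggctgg

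Hemopexin and haptoglobin transcripts had high levels in every liver. Hemopexin (Hpx) had 143628, 140301 and 114715 normalised reads in WT and 387449 and 231010.0 in HP1a_KO (log2 difference 1.18 ± 0.27 SE, DESeq2 adjusted p = 0.000316). Haptoglobin (Hp) had 89108, 75735 and 53973 in WT against 271219 and 142893 in HP1a_KO (log2 difference 1.46 ± 0.35 SE, DESeq2 adjusted p = 0.0034). Both mutant livers exceeded all WT livers for each gene, with replicate 1 the higher. Among inflammation markers, orosomucoid Orm1 had 10994, 12541 and 12412 in WT against 38964 and 18917 in HP1a_KO (log2 difference 1.18 ± 0.26 SE, DESeq2 adjusted p = 0.00232). The leucine-rich glycoprotein Lrg1 had 8676, 7580.4 and 5149 in WT against 25378 and 13312 in HP1a_KO (log2 difference 1.40 ± 0.40 SE, DESeq2 adjusted p = 0.0392), and the lipopolysaccharide-binding protein Lbp had 2779, 2619.8 and 2033 in WT against 9231 and 3865 in HP1a_KO (log2 difference 1.28 ± 0.36 SE, DESeq2 adjusted p = 0.0199). Itih4, an inter-alpha-trypsin inhibitor chain, had 55433, 59007 and 48763 in WT against 170118 and 94886 in HP1a_KO (log2 difference 1.23 ± 0.32 SE, DESeq2 adjusted p = 0.0114). In these 4 the same liver, replicate 1, was again the farther from WT. Ceruloplasmin (Cp), the copper-carrying ferroxidase, had 45975, 50922 and 48365 in WT against 88307 and 62182 in HP1a_KO (log2 difference 0.62 ± 0.18 SE, DESeq2 adjusted p = 0.0482).

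Serum amyloid genes covered the widest range. Saa3 had 197, 131 and 91.8 normalised reads in WT and 3137 and 440.5 in HP1a_KO (log2 difference 3.13 ± 0.71 SE, DESeq2 adjusted p = 0.0034). Saa2 had 583, 447 and 241 in WT and 119327 and 25419 in HP1a_KO (log2 difference 7.11 ± 1.43 SE), and Saa1 had 2098, 1355 and 795 and 113768 and 34047. Lipocalin Lcn2, an iron-siderophore trap, had 253, 113 and 59.9 in WT and 15168 and 1685 in HP1a_KO (log2 difference 5.39 ± 1.48 SE). Saa1, Saa2 and Lcn2 were among the 552 genes with no DESeq2 adjusted p, and their unadjusted limma p-values were 0.00219, 0.00104 and 0.00634. In the other HP1α mutants Saa2 stood at 9374 in HP1ab_KO and 7154, 262 and 198 in HP1ag_KO. The HP1ab_KO liver and HP1ag_KO replicate 1 lay between the WT and HP1a_KO livers, HP1ag_KO replicate 2 was in the WT range and replicate 3 was below it. Fibrinogen chains were higher by less. Fga had 151566, 188388 and 197223 in WT against 389351 and 261903 in HP1a_KO (log2 difference 0.84 ± 0.28 SE, DESeq2 adjusted p = 0.0586) and Fgb had 148168, 182459 and 177499.9 in WT against 353504 and 221088 in HP1a_KO (log2 difference 0.73 ± 0.28 SE, DESeq2 adjusted p = 0.11). The exception among the 29 was Hamp, which encodes the iron hormone hepcidin, with 3089.9, 346 and 558 in WT against 80.7 and 689.9 in HP1a_KO and groups that overlapped.

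Other secreted plasma proteins differed by less. Complement proteins were higher in 17 of 21 members with a median of 0.23. Of the 21, 15 stood clear above WT and 2 clear below, against 14.8% and 15.1% of all genes. Coagulation factors and inhibitors were higher in 13 of 19 with a median of 0.22. Complement C4b had 56469, 49933 and 49032 in WT against 75710.1 and 73865 in HP1a_KO (log2 difference 0.53 ± 0.14 SE, DESeq2 adjusted p = 0.00625), and the central component C3 had 225654, 215504 and 203099.6 in WT against 446250.0 and 321627 in HP1a_KO (log2 difference 0.82 ± 0.29 SE, DESeq2 adjusted p = 0.0586). Vitronectin (Vtn), an adhesive plasma protein, had 65233, 74477 and 70966 in WT against 101379.8 and 88074 in HP1a_KO (log2 difference 0.43 ± 0.15 SE, DESeq2 adjusted p = 0.0481). The 12 plasma proteins known to fall in inflammation had 8 higher and 4 lower and a median of 0.094, which was -0.043 in replicate 1 and 0.27 in replicate 2. Transferrin (Trf), one of these, was higher at 125602, 133391 and 130707 in WT against 199244 and 166240.0 in HP1a_KO (log2 difference 0.49 ± 0.18 SE, DESeq2 adjusted p = 0.0156). Genes of interleukin-6 and interleukin-1 signalling were higher in 18 of 21 by a median of 0.23. Of these 2 higher and 1 lower had an unadjusted limma p under 0.05, against 5.5% and 4.63% of all genes, and DESeq2 called 0. The NF-kappaB inhibitor Nfkbia had 1161, 1097.07 and 984 in WT against 1510.0 and 1428 in HP1a_KO (log2 difference 0.45 ± 0.11 SE, DESeq2 adjusted p = 0.11). Socs3, a target of STAT3, overlapped between the groups at 137, 227 and 418 in WT against 316 and 309 in HP1a_KO.

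Markers of liver macrophages were higher in the same livers as the acute phase genes. All 16 Kupffer cell markers were higher in HP1a_KO. Of these, 14 stood clear above WT and 12 had an unadjusted limma p under 0.05, against 14.8% and 5.5% of all genes. Their median was 0.55, with 0.63 in replicate 1 and 0.48 in replicate 2. Cd5l, a macrophage-secreted protein, had 3026, 3319.8 and 3192 normalised reads in WT and 6027 and 5005 in HP1a_KO (log2 difference 0.79 ± 0.20 SE, DESeq2 adjusted p = 0.0482). The macrophage receptor Csf1r had 2099.9, 1987 and 2262 in WT against 3139 and 3025 in HP1a_KO (log2 difference 0.54 ± 0.14 SE, DESeq2 adjusted p = 0.104), and the lysosomal marker Cd68 had 129.9, 150.5 and 158 in WT against 268 and 243 in HP1a_KO (log2 difference 0.81 ± 0.20 SE, DESeq2 adjusted p = 0.104). Clec4f and Timd4, which mark resident Kupffer cells, differed less. Clec4f overlapped at 3321, 3952 and 4734 in WT against 5447 and 4402 in HP1a_KO, and Timd4 had 265, 268 and 254 in WT against 354 and 284 in HP1a_KO. The iron exporter Slc40a1 had 5828, 5492 and 6090.4 in WT against 7849 and 8261 in HP1a_KO (log2 difference 0.47 ± 0.11 SE, DESeq2 adjusted p = 0.0433). Siglec1, a macrophage lectin outside the list, had 965, 686 and 703 in WT against 1475 and 1246 in HP1a_KO (log2 difference 0.81 ± 0.19 SE, DESeq2 adjusted p = 0.0482).

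Neutrophil markers were scarce in every library. Of 16 listed, 7 passed the filter of 10 normalised reads, all 7 were higher and their median was 1.37, or 2.36 without HP1a_KO replicate 2. A gene that passed through its mutant values alone had to be higher, so this count supports nothing further. The other 9, among them Elane, Ltf, Ngp and Mpo, had 0 to 7.12 normalised reads in WT livers and 0.86 to 20.6 in HP1a_KO livers. Prtn3, a serine protease of neutrophil granules, had 29.4, 19.999 and 9.36 in WT and 279 and 132 in HP1a_KO (log2 difference 3.36 ± 0.86 SE, DESeq2 adjusted p = 0.0123). S100a8, a calcium-binding protein of myeloid cells, had 14.2, 18.1 and 13.1 in WT against 91.7 and 62.8 in HP1a_KO (log2 difference 2.26 ± 0.51 SE, DESeq2 adjusted p = 0.00961), and its partner S100a9 had 13.3, 23.8 and 21.5 in WT against 110.1 and 80.0 in HP1a_KO (log2 difference 2.24 ± 0.79 SE, DESeq2 adjusted p = 0.0951). The part of these cells in the acute phase differences was not tested. Monocyte and dendritic cell markers were lower in 8 of 11 (median -0.28, and -0.020 without WT replicate 1), and lymphocyte markers were higher in 8 of 13 (median 0.069, which turned to -0.14 without WT replicate 1 and was 0.30 without WT replicate 3). Erythroid markers were higher in 8 of 11 (median 0.71, and 0.18 without WT replicate 1), but WT livers ranged widely in them, with Hbb-bs at 1435, 3065 and 8576 in WT against 5664 and 6230.1 in HP1a_KO.

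Of 27 stellate cell and matrix genes tested, 25 were higher, with a median of 0.32. Clear of WT stood 13 on the higher side and 1 on the lower, against 14.8% and 15.1% of all genes. At an unadjusted limma p under 0.05 there were 9 higher and 0 lower, against 5.5% and 4.63% of all genes. The 3 DESeq2 calls in this list were both chains of type I collagen, the main fibre of scar tissue, and a growth factor. All 3 were higher, against 0.444% of all genes. Col1a1 had 450.05, 569 and 296 normalised reads in WT and 1391 and 1045 in HP1a_KO (log2 difference 1.51 ± 0.31 SE, DESeq2 adjusted p = 0.00282), and Col1a2 had 836, 1187 and 918 in WT against 1954 and 1666 in HP1a_KO (log2 difference 0.90 ± 0.20 SE, DESeq2 adjusted p = 0.0215). Transforming growth factor Tgfb1, which drives matrix production, had 147, 88.6 and 110.5 in WT against 261 and 220.2 in HP1a_KO (log2 difference 1.08 ± 0.25 SE, DESeq2 adjusted p = 0.0407). In all 3 both mutant livers exceeded the WT livers. Acta2, which marks activated stellate cells, overlapped at 17.8, 60.9 and 46.8 in WT against 66.1 and 52.5 in HP1a_KO, and the resident marker Des had 88.1, 82.9 and 98.3 in WT against 110.1 and 106 in HP1a_KO. WT replicate 1 was lowest of the 9 livers for this list, and leaving it out gave a median of 0.14, while leaving out WT replicate 2 gave 0.50. Fibronectin (Fn1), outside the list, had 67248, 54997 and 44921 in WT against 98365 and 98845 in HP1a_KO (log2 difference 0.84 ± 0.20 SE, DESeq2 adjusted p = 0.0114). Endothelial markers were balanced, 13 higher and 12 lower with a median of 0.00067. The Wnt ligand Wnt2 of central vein endothelium was lower at 114, 176 and 157 in WT against 88.1 and 89.5 in HP1a_KO, and the junction cadherin Cdh5 higher at 969, 824 and 969 in WT against 1303 and 1241 in HP1a_KO (log2 difference 0.47 ± 0.11 SE, DESeq2 adjusted p = 0.0637).

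**Figure D2:**
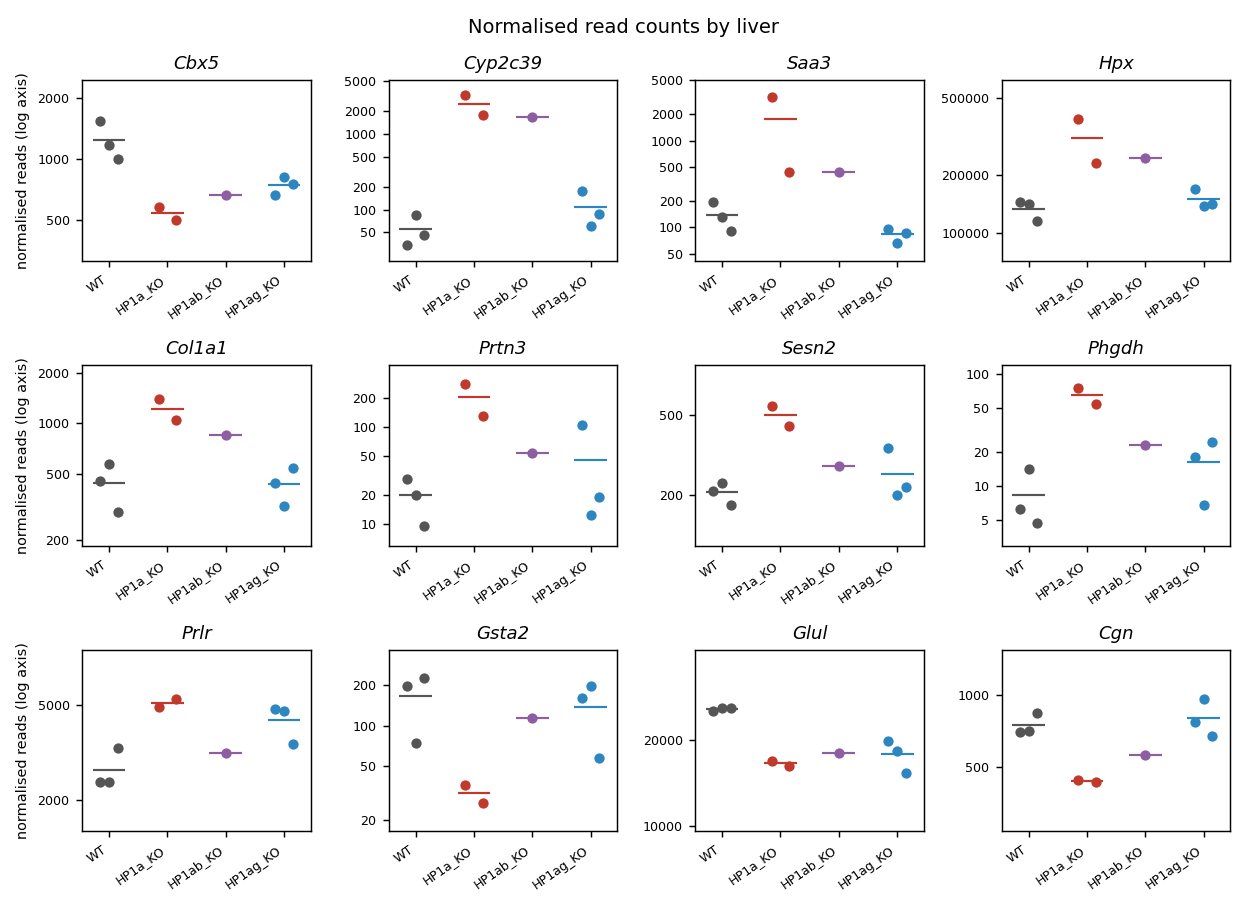
Normalised reads of 12 genes on log axes, with 1 point per liver and a line at each group mean. HP1a_KO livers lie clear of the 3 WT livers in all 12 panels, above for Cyp2c39, Saa3, Hpx, Col1a1, Prtn3, Sesn2, Phgdh and Prlr and below for Cbx5, Gsta2, Glul and Cgn.

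The integrated stress response differed alike in both livers. In this pathway, cells short of amino acids or under other stress translate the transcription factor ATF4, which raises genes for amino acid synthesis and transport and for transfer RNA charging. Of 23 members tested, 21 were higher. Of the 23, 16 stood clear above WT and 1 clear below, against 14.8% and 15.1% of all genes. An unadjusted limma p under 0.05 was found for 13 higher and 1 lower, against 5.5% and 4.63% of all genes. The list median was 0.90, with 0.96 in replicate 1 and 0.84 in replicate 2. It was smaller among members with a mean of at least 50, as given under processing. Members such as Phgdh and Aldh1l2, with WT means under 10, passed the filter through their mutant values and had to be higher. DESeq2 called 4 of the 23, all higher, against 0.444% of all genes. Phgdh, the first enzyme of serine synthesis, had 6.23, 14.3 and 4.68 normalised reads in WT and 75.2 and 54.2 in HP1a_KO (log2 difference 2.92 ± 0.61 SE, DESeq2 adjusted p = 0.00667). Psat1, the next enzyme, had 20.5, 125 and 45.9 in WT against 213 and 296 in HP1a_KO (log2 difference 2.33 ± 0.76 SE, DESeq2 adjusted p = 0.171). Mthfd2, a mitochondrial folate enzyme that uses serine carbon, had 48.9, 75.2 and 70.2 in WT against 228 and 207 in HP1a_KO (log2 difference 1.75 ± 0.43 SE, DESeq2 adjusted p = 0.0261). All 3 mutant pairs lay above their WT values.

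Sestrin Sesn2, which restrains growth signalling when amino acids are low, had 209.9, 230.5 and 179.8 in WT against 554 and 443 in HP1a_KO (log2 difference 1.26 ± 0.24 SE, DESeq2 adjusted p = 0.0034). The stress hormone Gdf15 had 51.6, 86.7 and 25.3 in WT against 149 and 197 in HP1a_KO (log2 difference 1.798 ± 0.45 SE, DESeq2 adjusted p = 0.0433). Fgf21, a fasting hormone counted here among PPAR-alpha targets, had 38.2, 128 and 28.1 in WT against 306 and 1059.9 in HP1a_KO (log2 difference 3.44 ± 0.99 SE, DESeq2 adjusted p = 0.118), with replicate 2 the higher liver. Aldh1l2 had 3.56, 5.71 and 4.68 in WT against 29.4 and 17.2 in HP1a_KO, and Atf5 had 2075, 3053 and 2249 in WT against 4080.4 and 3816 in HP1a_KO (log2 difference 0.70 ± 0.17 SE, DESeq2 adjusted p = 0.059). The transfer RNA synthetases for methionine and asparagine, outside the list, were higher by less and with a narrow spread. Both were chosen after their values were seen, and other synthetases are not given here. Mars had 1671, 1781 and 1756 in WT against 2429 and 2451 in HP1a_KO (log2 difference 0.49 ± 0.085 SE, DESeq2 adjusted p = 0.00162) and Nars had 3077, 3181 and 3321 in WT against 4082 and 4199 in HP1a_KO (log2 difference 0.38 ± 0.086 SE, DESeq2 adjusted p = 0.034). Asparagine synthetase Asns, a classical target, overlapped, with WT replicate 1 high, at 837, 81.9 and 58.1 in WT against 411 and 798 in HP1a_KO. Cth, which makes cysteine, was lower at 7512, 7586 and 9054 in WT against 5442 and 5307 in HP1a_KO (log2 difference -0.58 ± 0.16 SE, DESeq2 adjusted p = 0.0901).

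Promoter windows were found for 20 of the 23 genes. The ATF4 composite letters TGATGNAA, on either strand, were in 6 of these 20 genes (30%) and in 2.80% of the 9838 tested genes with a window. They were in 3 of the 14 that stood clear above WT, no larger a share than in the list. Here too a match is a run of letters and no evidence of binding. Both lines show genes that stood clear above WT, with the reverse complement of the letters in capitals.
Chac1 chr2:119351029-119351076 (+ strand): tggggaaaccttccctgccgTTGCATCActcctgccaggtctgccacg
Nupr1 chr7:126625553-126625600 (- strand): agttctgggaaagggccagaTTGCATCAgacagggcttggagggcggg

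Chac1, which degrades glutathione, had 276, 107 and 169 in WT against 294 and 476 in HP1a_KO and Nupr1, a stress-induced chromatin protein, had 10.7, 46.7 and 30.9 in WT against 82.6 and 65.4 in HP1a_KO. Neither was called by DESeq2 (adjusted p = 0.365 and 0.461). Lists of other stress programs lay nearer 0. Endoplasmic reticulum chaperones and unfolded protein response genes were higher in 14 of 24 with a median of 0.042, which was 0.14 without HP1a_KO replicate 2 and -0.00027 without WT replicate 3. Hspa5, the main chaperone of that compartment, overlapped at 32954, 23703 and 19761 in WT against 22356 and 20875 in HP1a_KO. Cytosolic heat shock genes were lower in 12 of 17 (median -0.098, which was -0.0025 without HP1a_KO replicate 1 and -0.33 without WT replicate 2), with Hsp90aa1 at 6627, 4622 and 8092 in WT against 3325 and 4059 in HP1a_KO. The p53 targets were higher in 11 of 17 (median 0.18, and 0.071 without WT replicate 1). Whether these lists differ from the ATF4 list was not tested.

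**Figure D3:**
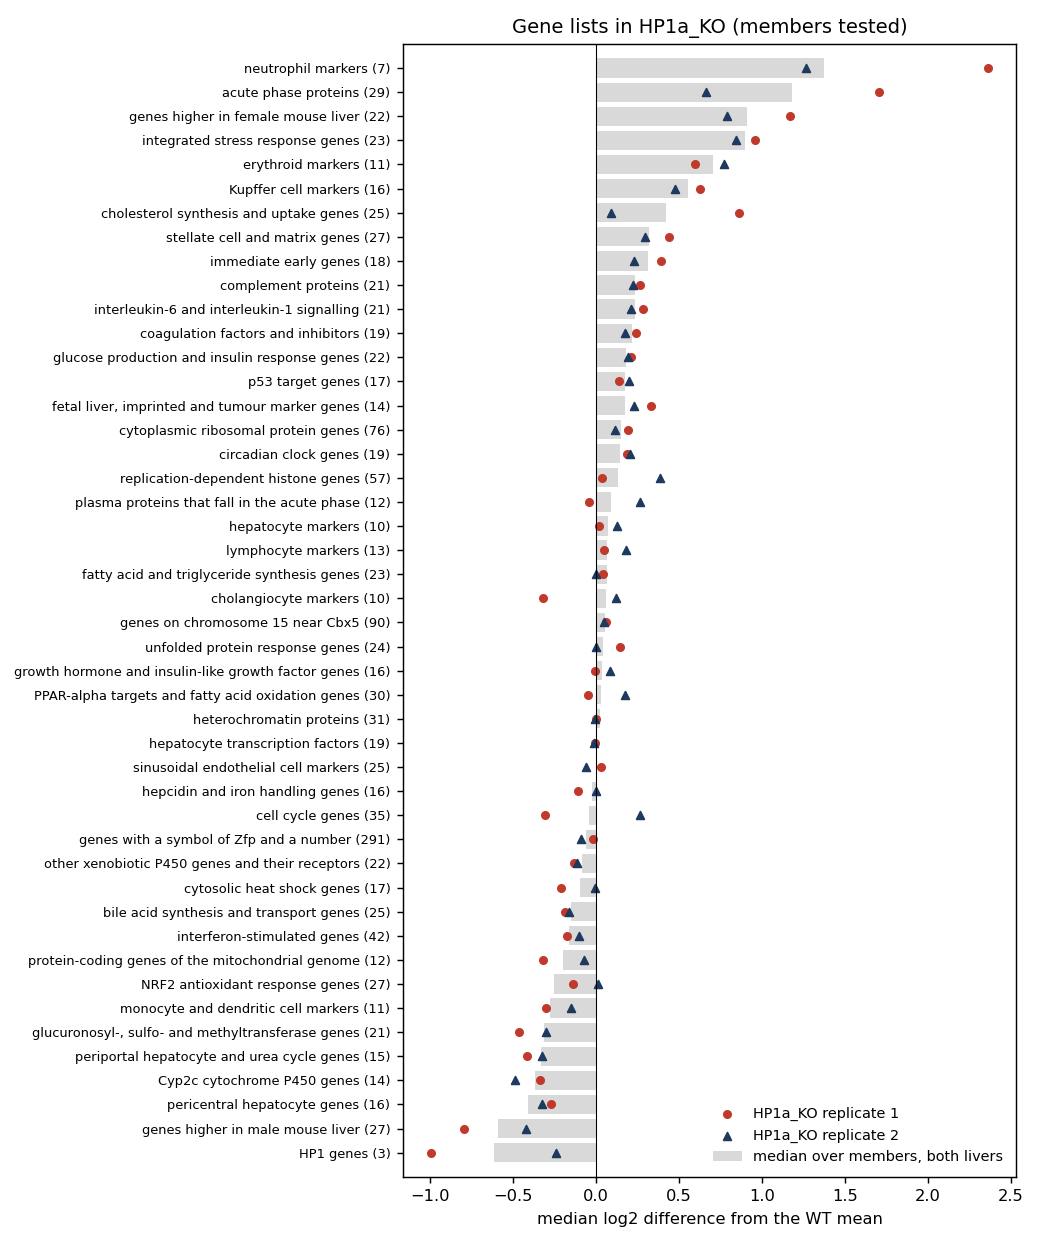
Bars give the median log2 difference between HP1a_KO and WT over the members of each list that were tested, and the number tested is in parentheses. Circles and triangles give the same median for HP1a_KO replicates 1 and 2 against the WT mean. The acute phase circle lies at 1.70 and its triangle at 0.66, while both marks of the integrated stress response lie near 0.90.

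Among genes that differ between the sexes in mouse liver, female-biased ones were mostly higher and male-biased ones mostly lower in HP1a_KO. Growth hormone, released in pulses in males and more steadily in females, sets these sex differences. Female-biased genes were higher in 17 of 22 tested (median 0.91) and male-biased genes lower in 23 of 27 (median -0.59). The WT livers themselves were spread. Their means of centred log2 values over the female-biased list were -1.67, -0.19 and -0.92, against 0.50 and 0.011 in HP1a_KO. HP1ag_KO replicate 1 was far beyond these at 2.18. The labels give no sex, and the Y-linked gene Ddx3y was present in all 5 livers, at 3833, 4004 and 4549 in WT against 3036 and 3702 in HP1a_KO.

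Prlr, the prolactin receptor, had 2368, 2363 and 3286 normalised reads in WT and 4909.7 and 5321 in HP1a_KO (log2 difference 0.95 ± 0.19 SE, DESeq2 adjusted p = 0.00829). The magnesium transporter gene Nipal1 had 121, 164 and 113 in WT against 1330.2 and 409 in HP1a_KO (log2 difference 2.48 ± 0.47 SE, DESeq2 adjusted p = 1.01e-05), and in HP1ag_KO it had 854, 435 and 545. The organic anion transporter Slc22a26 had 16.01, 66.7 and 30.9 in WT against 547 and 327 in HP1a_KO (log2 difference 3.67 ± 1.27 SE, DESeq2 adjusted p = 0.319). Each of these 3 had both mutant livers above every WT liver. On the male-biased side, the selenium-binding protein Selenbp2 had 31600.4, 25929 and 37856 in WT and 5174 and 653 in HP1a_KO (log2 difference -4.09 ± 1.08 SE, DESeq2 adjusted p = 0.157), with the lowest value in replicate 2 and a difference of -2.60 without it. The bile acid hydroxylase Cyp7b1, the lipid elongase Elovl3 and the urinary protein Mup20 varied widely among the WT livers. Cyp7b1 had 12565, 4699.7 and 8188 in WT against 1844 and 5158 in HP1a_KO, Elovl3 had 2404, 3452 and 16866 in WT against 956 and 2596 in HP1a_KO, and Mup20 had 97246, 32525 and 34373 in WT against 27967 and 29328 in HP1a_KO. At an unadjusted limma p under 0.05 there were 8 of 22 female-biased genes higher and 0 lower, against 5.5% and 4.63% of all genes. Of the 27 male-biased genes 1 was lower and 1 higher at that level, which is no more than the shares of all genes. By position, however, 10 of these 27 stood clear below WT and 1 clear above, against 15.1% and 14.8% of all genes. Among the 22 female-biased genes 12 stood clear above WT and 0 clear below. The limma spread also drew on the HP1ag_KO livers. Their means of centred log2 values over the male-biased list lay far apart, at -2.17, 0.53 and 0.050.

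Genes that mark zones of the liver lobule were mostly lower, and DESeq2 called 1 pericentral and 0 periportal genes. Pericentral genes, active near the central vein, were lower in 14 of 16 (median -0.41), and periportal and urea cycle genes were lower in 13 of 15 (median -0.33). At an unadjusted limma p under 0.05 there were 4 pericentral genes lower and 1 higher, and 2 periportal genes lower and 0 higher. Over all genes these shares were 4.63% lower and 5.5% higher. Clear of WT stood 6 of the 16 pericentral genes on the lower side and 0 on the higher. For the 15 periportal genes these counts were 9 and 1. Over all genes 15.1% stood clear below and 14.8% clear above. Glul, the glutamine synthetase of the innermost pericentral hepatocytes, had 25258, 25800.2 and 25773 normalised reads in WT and 16870.3 and 16226 in HP1a_KO (log2 difference -0.63 ± 0.13 SE, DESeq2 adjusted p = 0.0034). Its WT livers differed by little and both mutant livers were lower. Among periportal genes, glutaminase Gls2 had 9504, 7179 and 8328 in WT against 5348 and 6091 in HP1a_KO (log2 difference -0.54 ± 0.21 SE, DESeq2 adjusted p = 0.375) and the urea cycle enzyme Cps1 had 226934, 214019.8 and 229834 in WT against 154752 and 197758 in HP1a_KO (log2 difference -0.35 ± 0.26 SE, DESeq2 adjusted p = 0.65). Hnf4a, a master regulator of hepatocyte genes, was higher at 16479, 16338 and 15969.6 in WT against 20309 and 22712 in HP1a_KO (log2 difference 0.40 ± 0.11 SE, DESeq2 adjusted p = 0.0383), while hepatocyte transcription factors as a list were balanced at 10 higher and 9 lower.

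Conjugating enzymes (glucuronosyl-, sulfo- and methyltransferases) were lower in 18 of 21 by a median of -0.31, and DESeq2 called 0. Of the 21, 10 stood clear below WT and 0 clear above, against 15.1% and 14.8% of all genes. The sulfotransferase Sult1b1 had 1178, 983 and 1021 in WT against 519 and 812 in HP1a_KO and the arylamine acetyltransferase Nat2 had 530.1, 646 and 557 in WT against 367 and 392.28 in HP1a_KO. Targets of the antioxidant factor NRF2 were lower in 16 of 27 (median -0.25). That median was 0.011 without HP1a_KO replicate 1. Clear of WT stood 10 of the 27 on the lower side and 4 on the higher, against 15.1% and 14.8% of all genes. At an unadjusted limma p under 0.05 there were 7 lower and 2 higher, against 4.63% and 5.5% of all genes. DESeq2 called 2, both glutathione transferases and both lower, against 0.197% of all genes. Gsta2 had 197, 74.3 and 226 in WT against 36.7 and 26.7 in HP1a_KO (log2 difference -2.22 ± 0.61 SE, DESeq2 adjusted p = 0.0155), and Gstm1 had 14762, 14433 and 14647 in WT against 10904 and 11705 in HP1a_KO (log2 difference -0.37 ± 0.10 SE, DESeq2 adjusted p = 0.0482). The WT livers spread widely in Gsta2 and hardly at all in Gstm1. Nqo1, a standard NRF2 reporter gene, overlapped at 154, 135 and 125 in WT against 125 and 92.9 in HP1a_KO. Of 22 other drug-metabolising P450 genes and their receptors, 14 were lower. Cyp2a5, which oxidises coumarin, had 21361, 10820.2 and 4973 in WT against 2596 and 3917 in HP1a_KO (log2 difference -1.72 ± 0.51 SE, DESeq2 adjusted p = 0.00931), and its WT livers differed among themselves more than 4-fold. Bile acid genes were lower in 16 of 25 (median -0.15, and -0.090 without WT replicate 3). Cyp8b1, which sets the share of cholic acid, had 6009.9, 6859 and 6955 in WT against 2737 and 3642 in HP1a_KO (log2 difference -1.06 ± 0.48 SE, DESeq2 adjusted p = 0.31), and the uptake carrier Slco1b2 had 56492, 49681 and 53107 in WT against 37926 and 39846 in HP1a_KO (log2 difference -0.45 ± 0.17 SE, DESeq2 adjusted p = 0.229).

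The difference in cholesterol synthesis lay mostly in 1 liver. The list was higher in 21 of 25 by a median of 0.42, but the median was 0.86 in replicate 1 and 0.092 in replicate 2. Hmgcs1, an early enzyme of the pathway, had 4259, 4732 and 7467 in WT against 21125 and 8795 in HP1a_KO (log2 difference 1.36 ± 0.39 SE, DESeq2 adjusted p = 0.0276). Squalene epoxidase Sqle had 1638, 1398 and 1742 in WT against 3047 and 1413 in HP1a_KO, and lanosterol synthase Lss had 1222, 1256 and 1540.4 in WT against 2963 and 1373 in HP1a_KO, so that only replicate 1 left the WT range in these. Srebf2, the factor that drives the pathway, had 894, 706 and 706 in WT against 1092 and 957 in HP1a_KO (log2 difference 0.42 ± 0.14 SE, DESeq2 adjusted p = 0.361). Fatty acid synthesis genes (12 of 23 higher, median 0.065) and targets of PPAR-alpha (17 of 30 higher, median 0.033) stayed near the value over all genes. Both medians changed sign when 1 liver was left out, to -0.027 and -0.050 without WT replicate 3. Slc13a5, a citrate importer of hepatocytes, had 30.2, 15.2 and 4.68 in WT against 163 and 64.5 in HP1a_KO (log2 difference 2.87 ± 0.76 SE, DESeq2 adjusted p = 0.0276). Lactate dehydrogenase Ldha had 15931, 18063 and 14933 in WT against 28697 and 25649.9 in HP1a_KO (log2 difference 0.74 ± 0.15 SE, DESeq2 adjusted p = 0.0034).

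**Figure D4:**
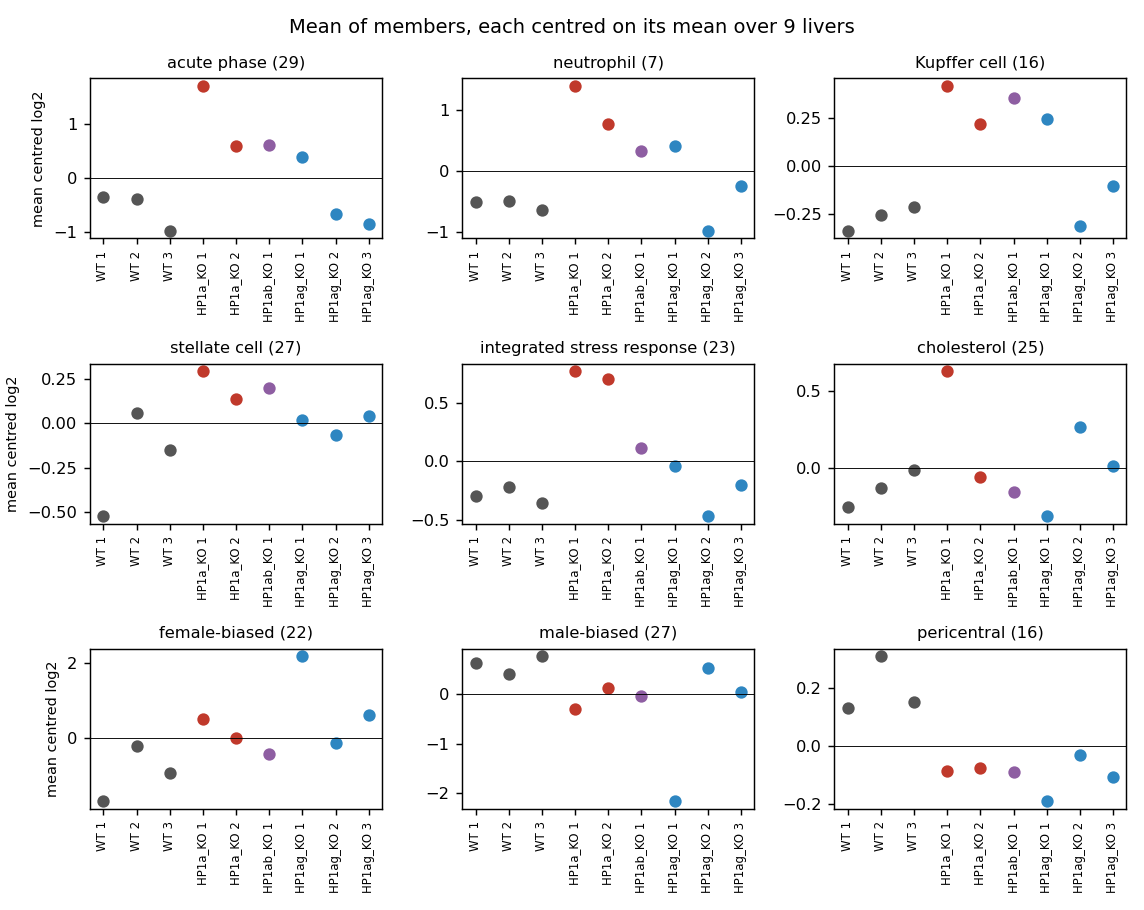
Each point is 1 liver and gives the mean over list members of log2(value + 1), after each gene was centred on its mean over the 9 livers. Both HP1a_KO livers lie above the 3 WT livers for the acute phase, neutrophil, Kupffer, stellate and integrated stress response lists and below them for the pericentral list. In the cholesterol panel HP1a_KO replicate 1 is above the 3 WT livers and replicate 2 lies among them, and HP1ag_KO replicate 1 is the extreme liver for both sex-biased lists.

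Several called genes belong to none of these groups. Wdfy1, an endosomal adaptor, had 241, 326 and 281 normalised reads in WT and 668 and 644 in HP1a_KO (log2 difference 1.22 ± 0.15 SE, DESeq2 adjusted p = 7.25e-08), and its limma adjusted p of 0.194 was the lowest after that of Cyp2c39 among genes named here. Its HP1ab_KO liver was alike, at 703, and the HP1ag_KO livers were lower, at 303, 335 and 299. Crybb3, a crystallin gene, had 47.1, 21.0 and 17.8 in WT against 216 and 107 in HP1a_KO (log2 difference 2.50 ± 0.52 SE, DESeq2 adjusted p = 0.0034), and Prg4, which encodes lubricin, had 571, 199 and 181 in WT against 1495 and 831 in HP1a_KO (log2 difference 2.02 ± 0.54 SE, DESeq2 adjusted p = 0.0407). The receptor ligand Gas6 had 567, 584 and 750.1 in WT against 2646 and 1026 in HP1a_KO (log2 difference 1.39 ± 0.41 SE, DESeq2 adjusted p = 0.0261) and its receptor Axl had 952, 907 and 975 in WT against 1547 and 1443 in HP1a_KO (log2 difference 0.66 ± 0.15 SE, DESeq2 adjusted p = 0.0482). Polr2a, the largest subunit of RNA polymerase II, had 1049, 616 and 647 in WT against 1393 and 1638 in HP1a_KO (log2 difference 1.01 ± 0.22 SE, DESeq2 adjusted p = 0.0203). Alox15 was called (DESeq2 adjusted p = 0.0261) on replicate 1 alone, with 1.78, 2.86 and 0.936 in WT against 159.6 and 2.58 in HP1a_KO.

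Among the genes called lower, the oxidase Nox4 had 833, 640.0 and 848 in WT against 363 and 350.1 in HP1a_KO (log2 difference -1.10 ± 0.28 SE, DESeq2 adjusted p = 0.0342) and was lower still in HP1ag_KO, at 262, 172 and 125. The surface antigen Ly6a had 247, 297 and 312 in WT against 121 and 156 in HP1a_KO (log2 difference -1.04 ± 0.22 SE, DESeq2 adjusted p = 0.0282). Cgn, which encodes the tight junction protein cingulin, had 701, 709 and 841 in WT against 440.3 and 433 in HP1a_KO (log2 difference -0.78 ± 0.16 SE, DESeq2 adjusted p = 0.0218), and the hepcidin regulator Hfe2 had 1243, 1331 and 1358 in WT against 895 and 662 in HP1a_KO (log2 difference -0.77 ± 0.18 SE, DESeq2 adjusted p = 0.0482). Zfc3h1, a cofactor of nuclear RNA decay, had 1587, 1688 and 2031 in WT against 1086 and 1056 in HP1a_KO (log2 difference -0.71 ± 0.15 SE, DESeq2 adjusted p = 0.0199). The translation factor Eif4a2 had 7084, 6972 and 7782 in WT against 4737 and 5064 in HP1a_KO (log2 difference -0.57 ± 0.096 SE, DESeq2 adjusted p = 0.00018), the splicing-related gene Rsrc2 had 1023, 1188 and 1329 in WT against 750.4 and 819.8 in HP1a_KO (log2 difference -0.58 ± 0.12 SE, DESeq2 adjusted p = 0.0318), and the stress-linked factor Crebzf had 1006, 992 and 1002 in WT against 657 and 649 in HP1a_KO (log2 difference -0.61 ± 0.10 SE, DESeq2 adjusted p = 0.0034). In all of these both mutant livers were below every WT liver. Further calls of this kind were Cpsf4l at 111, 89.5 and 79.6 in WT against 44.0 and 28.4 in HP1a_KO, Emc9, a subunit of a membrane insertion complex, at 413, 347 and 397 in WT against 172 and 259 in HP1a_KO, the ciliary motor Dync2h1 at 395, 381 and 317 in WT against 213 and 227 in HP1a_KO, and the hydrolase Cmbl at 2777, 2413 and 3039 in WT against 1578 and 1936 in HP1a_KO.

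Genes of heterochromatin itself varied little. Of 31 genes for HP1 partners and histone H3 lysine methylation, 18 were higher and 13 lower with a median of 0.025, and DESeq2 called 0. The repressor Trim24 had 742, 779 and 579.6 in WT against 1171 and 889.5 in HP1a_KO (log2 difference 0.55 ± 0.23 SE, DESeq2 adjusted p = 0.448), and the lysine methyltransferase Setdb1 had 915, 1027 and 1161 in WT against 833 and 890.4 in HP1a_KO (log2 difference -0.26 ± 0.15 SE, DESeq2 adjusted p = 0.694). Genes named Zfp and a number, many of which encode zinc finger repressors, had 164 of 291 members lower and a median of -0.057, or -0.019 without HP1a_KO replicate 2. At an unadjusted limma p under 0.05 there were 5 of 291 higher and 16 lower, against 5.5% and 4.63% of all genes. Clear of WT stood 28 on the higher side and 52 on the lower, against 14.8% and 15.1% of all genes. DESeq2 called 1 of the 291 higher, against 0.444% of all genes, and 0 lower. The call was Zfp334 with 66.7, 68.6 and 83.3 in WT against 179.8 and 138 in HP1a_KO (log2 difference 1.11 ± 0.21 SE, DESeq2 adjusted p = 0.0168). Replication-dependent histone genes were higher in 43 of 57 (median 0.13). Of these 57, 0 stood clear above WT and 1 clear below, against 14.8% and 15.1% of all genes. Their median turned to -0.093 when WT replicate 1 was left out and to -0.12 when WT replicate 3 was. Cytoplasmic ribosomal protein genes were higher in 73 of 76 by a small median of 0.15, and by 0.056 without WT replicate 1. Of the 76, 23 stood clear above WT and 1 clear below, against 14.8% and 15.1% of all genes. The 12 protein-coding mitochondrial genes had 8 lower and 4 higher (median -0.20, and -0.070 without HP1a_KO replicate 1).

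Genes near the deleted locus were examined because a chromosome segment can stay linked to a targeted allele on a mixed background. Of 139 genes that start within 5 Mb of Cbx5 on chromosome 15, 90 passed the filter, 52 were higher and 38 lower (median 0.057, and 0.0032 without WT replicate 1). An unadjusted limma p under 0.05 was found for 7 of the 90 on the higher side, near the 5.5% of all genes, and for 0 on the lower side, against 4.63%. Zfp385a had 85.4, 90.5 and 89.0 normalised reads in WT and 226 and 185 in HP1a_KO (log2 difference 1.202 ± 0.22 SE, DESeq2 adjusted p = 0.00667). The integrin Itga5 had 367, 365 and 372 in WT against 648 and 523 in HP1a_KO (log2 difference 0.66 ± 0.15 SE, DESeq2 adjusted p = 0.0556), and the glycosyltransferase Galnt6 had 44.5, 47.6 and 32.8 in WT against 103 and 85.2 in HP1a_KO (log2 difference 1.17 ± 0.27 SE, DESeq2 adjusted p = 0.0901). For Zfp385a the HP1ab_KO liver was also high, at 181, and the HP1ag_KO livers, which carry the same deletion, had 131, 85.2 and 86.1.

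Classes of noncoding RNA were lower in HP1a_KO in both livers. Genes annotated as antisense were lower in 137 of 193 (median -0.19), with 28 lower and 2 higher at an unadjusted limma p under 0.05, against 4.63% and 5.5% of all genes. Long intergenic RNAs were lower in 113 of 164 (median -0.21, and -0.14 without WT replicate 2) and processed transcripts in 101 of 139 (median -0.22). Protein-coding genes had a median of 0.0058. Small nucleolar RNA genes were higher in 44 of 65 (median 0.21). The antisense median was -0.23 in replicate 1 and -0.22 in replicate 2. Without any one of the 5 livers it lay between -0.28 and -0.17. Most of these genes have few reads, and reads of an antisense gene and its partner can be told apart only if strand was used in counting, which is not given in the sources used here.

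**Figure D5:**
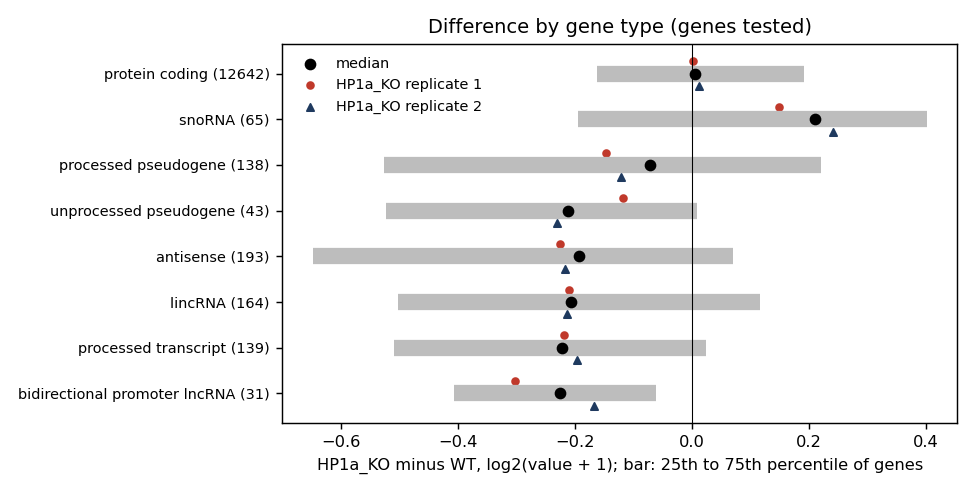
Black points give the median log2 difference between HP1a_KO and WT over the genes of each annotated type, and grey bars the range from the 25th to the 75th percentile of genes. Small circles and triangles give the medians of HP1a_KO replicates 1 and 2. Both lie below 0 for the 4 noncoding RNA types at the bottom and above 0 for small nucleolar RNA genes.

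The HP1ag_KO livers share the HP1α deletion, and comparing them with HP1a_KO asks where further loss of HP1γ goes with another level. This comparison shares the 2 HP1a_KO livers with the one above, so the values are set side by side and not counted as a second line of support. limma and edgeR called 0 genes, with 2191 (16%) and 2143 (15.6%) at an unadjusted p under 0.05, and DESeq2 called 458 (3.34%), 238 higher (1.73%) and 220 lower (1.6%) in HP1ag_KO. With libraries scaled to equal totals, the unadjusted limma split moved from 1024 higher and 1167 lower to 1695 higher and 614 lower. Without HP1a_KO replicate 1 the DESeq2 calls numbered 30 and without replicate 2 they numbered 75.

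Several genes that were higher in HP1a_KO than in WT had levels in or near the WT range in HP1ag_KO. Cyp2c39 was lower in HP1ag_KO than in HP1a_KO by a log2 difference of -4.61 ± 0.51 SE (DESeq2 adjusted p = 4.01e-18). Hpx had 168488, 137807 and 141302 in HP1ag_KO (-1.01 ± 0.27 SE, DESeq2 adjusted p = 0.00166), and Col1a1 had 440.2, 319 and 537 (-1.51 ± 0.31 SE, DESeq2 adjusted p = 0.000762). Phgdh stood at 18.2, 6.73 and 24.6 and Sesn2 at 344, 201 and 219.5. By list, the median log2 difference of HP1ag_KO from HP1a_KO was -0.95 for acute phase proteins, -0.83 for the integrated stress response and -0.34 for Kupffer cell markers. Glul was below WT in HP1ag_KO too, at 19836, 18367 and 15365. Zfp genes were higher in HP1ag_KO than in HP1a_KO by a median of 0.20, and interferon-stimulated genes by 0.41. At an unadjusted limma p under 0.05, 54 of 291 Zfp genes were higher and 5 lower, and 12 of 42 interferon-stimulated genes higher and 0 lower. Over all 13727 genes 1024 were higher and 1167 lower at that level, a split that depended on the scaling, as given above. Against WT the same interferon list had a median of -0.16 in HP1a_KO, or -0.037 without WT replicate 1. In the HP1ab_KO liver, which has no replicate, the acute phase median against WT was 0.59, the Kupffer median 0.61 and the integrated stress response median 0.38.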

How the data were processed

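Per the labels' protocols, RNA was extracted from frozen liver with Trizol, and stranded total RNA libraries were made after removal of ribosomal RNA. The submitters' processing notes list TopHat2 2.0.10 and Bowtie2 2.1.0, HTSeq 0.5.4p3, DESeq2 1.0.19, CASAVA 1.8.2 and the build mm10, and give no role for each. Strand setting, annotation release and filters are not stated in what was used here. The deposited table holds 1 normalised signal value for each gene in each library, which the authors obtained by dividing reads by 1 factor per library, as the steps between values show. Dividing by that step gave whole reads for 100% of values at a tolerance of 0.1, with size factors of 0.545 to 1.25. GENCODE vM21 (GRCm38) held 98.0% of the 22701 identifiers and gave coordinates and gene types. No 2 replicates agreed within sampling noise (chi-square over degrees of freedom of 49.0 to 125), so each was kept as its own sample. Nothing in the labels says whether replicates shared a litter, and p-values measure the spread between these livers.

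For the 13727 genes kept, limma 3.58.1 (R 4.3.3) was fitted to log2(value + 1) with a trend on mean level, a scale that understates differences of low genes. Group means of all 4 genotypes came from 1 fit of 9 libraries (5 residual and 3.12 prior degrees of freedom). An exact permutation test of 2 against 3 livers cannot go below 0.1 one-sided. Recovered reads were tested with DESeq2 1.42.0 (Wald) and with edgeR 4.0.16 (quasi-likelihood). The fits were tested on simulated data. The 46 gene lists are described by counts and medians with no test. Members, lists and naming rule were chosen with earlier results of these data known. Named were the HP1 genes, up to 12 genes per direction with the widest difference among DESeq2 calls clear of WT with a mean of at least 50, and up to 4 members per list by smallest limma p plus its highest-level member. Unnamed gene models, Xist and Y-linked genes were left out of that rule. Other list members, Wdfy1, Siglec1, Fn1, Mars, Nars, Gas6, Axl, Polr2a, Ldha, Alox15, Eif4a2, Rsrc2, Crebzf, Rps2-ps13, Rps3a3, Myom2 and Ddx3y were chosen after their values were seen. Other settings tried were pseudocounts of 0.5 and 5, a mean of at least 50 or no filter, TMM or equal-total scaling, 3 other limma options (no trend, robust shrinkage, array weights), a fit of the compared groups alone, both count tests, and each replicate left out in turn. DESeq2 with a replicate left out was added after the data were seen. Python 3.11.15, numpy 2.4.6, pandas 2.3.3 and matplotlib 3.10.9 were used.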

Additional observations from a re-analysis of the deposited data

How the results depend on the processing

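No paired analysis was possible because the labels give no replicate numbers. For HP1a_KO against WT, limma called 0 genes, 1 with a pseudocount of 5, 1 with array weights (Cyp2c39 in both) and 0 to 5 with 1 library left out, the 5 without HP1a_KO replicate 2. DESeq2 called 88. At an unadjusted p under 0.05 limma had 1391 genes, 518 to 1717 with 1 library left out, the fewest without HP1a_KO replicate 1. For HP1ag_KO against HP1a_KO, limma called 0 genes, 0 to 5 with 1 library left out (5 without HP1a_KO replicate 2 and 3 without HP1ag_KO replicate 1), and DESeq2 called 458. DESeq2 had 30 to 478 calls there with 1 library left out. With 1 library left out, list medians ran from -0.043 to 0.27 for plasma proteins that fall in inflammation, from 0.19 to 0.27 for complement proteins, from 0.18 to 0.24 for coagulation factors and inhibitors and from 1.26 to 2.36 for neutrophil markers. They ran from -0.39 to -0.020 for monocyte and dendritic cell markers, from -0.057 to 0.084 for sinusoidal endothelial cell markers, from -0.32 to 0.21 for cholangiocyte markers and from 0.092 to 0.86 for cholesterol synthesis and uptake genes. They ran from -0.027 to 0.15 for fatty acid and triglyceride synthesis genes, from -0.25 to -0.090 for bile acid synthesis and transport genes, from 0.84 to 1.02 for integrated stress response genes and from -0.30 to 0.011 for NRF2 antioxidant response genes. They ran from -0.65 to -0.25 for Cyp2c cytochrome P450 genes, from -0.46 to -0.27 for glucuronosyl-, sulfo- and methyltransferase genes, from -0.43 to -0.27 for pericentral hepatocyte genes and from -0.99 to -0.24 for HP1 genes. They ran from -0.087 to -0.019 for Zfp genes and from 0.0032 to 0.087 for genes on chromosome 15 near Cbx5. With equal totals, medians were -0.043 for all genes tested, 0.19 for complement proteins, 0.18 for coagulation factors and inhibitors, -0.098 for Zfp genes and 0.015 for genes on chromosome 15 near Cbx5. At a mean of at least 50, medians were -0.60 for lymphocyte markers, 0.70 for integrated stress response genes and -0.15 for NRF2 antioxidant response genes. With no filter, medians were 0.80 for integrated stress response genes and -0.15 for NRF2 antioxidant response genes. Among genes with values in the text, the difference changed sign for Cbx3 (-0.12 to 0.014 with 1 library left out, above 0 without HP1a_KO replicate 1, WT replicate 2 or WT replicate 3), Sqle (-0.17 to 0.94, below 0 without HP1a_KO replicate 1) and Igf2bp3 (-0.018 to 0.65, below 0 without WT replicate 1). The cause of these changes was not tested, beyond the fewer samples or genes in each fit. With 2 mutant livers, 1 of them at 16266423 reads, genes of few reads and differences under the spread between livers were not resolved.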

Other observations

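Clock, immediate early and fetal genes gave a few further differences between HP1a_KO and WT. Nr1d1, a repressor of the circadian clock, had 463, 755 and 166 in WT against 1101 and 1718 in HP1a_KO (log2 difference 1.83 ± 0.57 SE, DESeq2 adjusted p = 0.0971). The clock list as a whole was higher in 12 of 19 with a median of 0.14, or -0.12 without WT replicate 3, and the labels give no hour of dissection. The immediate early gene Egr1 had 62.3, 156 and 88.0 in WT against 159.6 and 669 in HP1a_KO (log2 difference 1.77 ± 0.63 SE, DESeq2 adjusted p = 0.0637), with replicate 2 the higher liver. S100a11 had 12.5, 13.3 and 10.3 in WT against 44.0 and 32.7 in HP1a_KO, and the fetal liver gene Gpc3 had 25.8, 22.9 and 24.3 in WT against 60.5 and 37.9 in HP1a_KO, while Igf2bp3 overlapped at 142, 243 and 361 in WT against 306 and 279.6 in HP1a_KO. Cell cycle genes had 15 of 35 higher and 20 lower with 0 at an unadjusted limma p under 0.05.

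Some genes were near 0 in some livers and high in others within a group. The pseudogene Rps2-ps13 had 0.889, 2066 and 2000.2 in WT against 0 and 2.58 in HP1a_KO, with 0.799 in HP1ab_KO and 0, 1825 and 3.79 in HP1ag_KO. The pseudogene Rps3a3 had 1066, 3.81 and 4.68 in WT against 1.83 and 1.72 in HP1a_KO, with 1201 in HP1ab_KO and 1.82, 2354 and 1278 in HP1ag_KO. The muscle gene Myom2 had 249.9, 4.76 and 1.87 in WT against 0 and 0 in HP1a_KO. In each of these 3, at least 1 WT liver was near 0 and at least 1 was high. The log2 difference of Rps2-ps13 was -6.71 with an unadjusted limma p of 0.109, and DESeq2 gave it no adjusted p.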
